A study of Mus musculus with 4 samples.

Results

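Mitotic genes encode the proteins that carry a cell from the end of DNA replication through chromosome segregation and division. Colonies of basal epithelial cells from the mouse mammary gland, grown with or without Wnt3A, were examined for them. Wnt3A is a secreted protein that activates canonical Wnt signalling. The set was a list of 40 genes given by symbol, and a gene's value was the mean over its probe sets that carry that symbol alone in the array's annotation. This found 39 of the 40, with 87 probe sets, among 18193 genes in all. Ccnb1, the gene of cyclin B1, had no such probe set and was not analysed here.

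Cells were taken from the mammary glands of virgin CD1 females aged 8 to 12 weeks and sorted as CD24-positive cells with high CD29 and no lineage markers, a gate in which mammary stem cells are enriched. They grew in Matrigel, a basement membrane gel, in medium with 50 ng/ml EGF, and colonies of passage 2 gave the RNA after 6 to 7 days. One group received 200 ng/ml purified Wnt3A throughout and the other its vehicle, CHAPS in PBS, which the sample names spell as vesicle. Each group had 2 Affymetrix arrays, numbered 1 and 2. Neither the origin of a group's arrays (separate animals, cultures or one RNA) nor the meaning of the shared numbers is given in the labels, so p-values measure only the spread among these arrays, which may be technical. Deposited values are on the log2 scale and relative to the probe set's own 4-array median, so they give no absolute level beyond the coarse band described below, and genes are not compared by level here. In such values the arrays in the middle of a probe set lie at equal distances on both sides of 0 by construction. RNA came from whole colonies, in which fewer dividing cells and less mitotic RNA per cell cannot be told apart.

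As background, most mitotic genes are switched on together late in the cell cycle. B-Myb and Foxm1 act with the MuvB complex at promoters that carry a short element called the cell cycle genes homology region, and NF-Y binds CCAAT boxes nearby. Cyclins bound to Cdk1 start mitosis, kinetochores attach chromosomes to the spindle, the spindle checkpoint holds anaphase back until attachment is complete, and ubiquitin-dependent destruction of cyclins ends it. Transcripts of these genes are widely used as a measure of how many cells in a sample are dividing.

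The labelled cell type was checked through a level band read from the precision with which each number is stored, log2 8 to 16, 4 to 8 or below 4. All 9 basal epithelial markers, among them Krt5, Krt14 and Trp63, had a probe set in the upper band, as did 6 of 9 luminal markers and 50.3% of all genes. The upper band held 1 of 7 fibroblast, 0 of 6 endothelial and 1 of 6 leukocyte markers. Of the mitotic genes, 37 of 39 reached the upper band, while Ndc80 and Foxm1 lay in the band of 4 to 8.

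Mitotic genes as a group separated the 2 control arrays, with the Wnt3A arrays between them. Their median value was 0.37 in control 1, 0.04 in Wnt3A 1, -0.04 in Wnt3A 2 and -0.20 in control 2. Control 1 was above control 2 for 38 of 39 members, against 58.9% of all genes, with Cenpe as the exception. Control 1 was the highest array for 35 of 39 members, against 30.5% of all genes, and control 2 was the lowest for 30, against 30.6%. Both held for 28 members, against 11% of all genes. The median difference between the controls was 0.56 log2 units over the members and 0.05 over all genes, and 25 members were higher in control 1 by 0.5 log2 units or more, which 6.78% of all genes were. The gap between the controls was wider than the gap between the Wnt3A arrays for 34 of the 39, against 50.6% of all genes. With 1 array on each side, these orders are descriptions without a test.

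**Figure D1:**
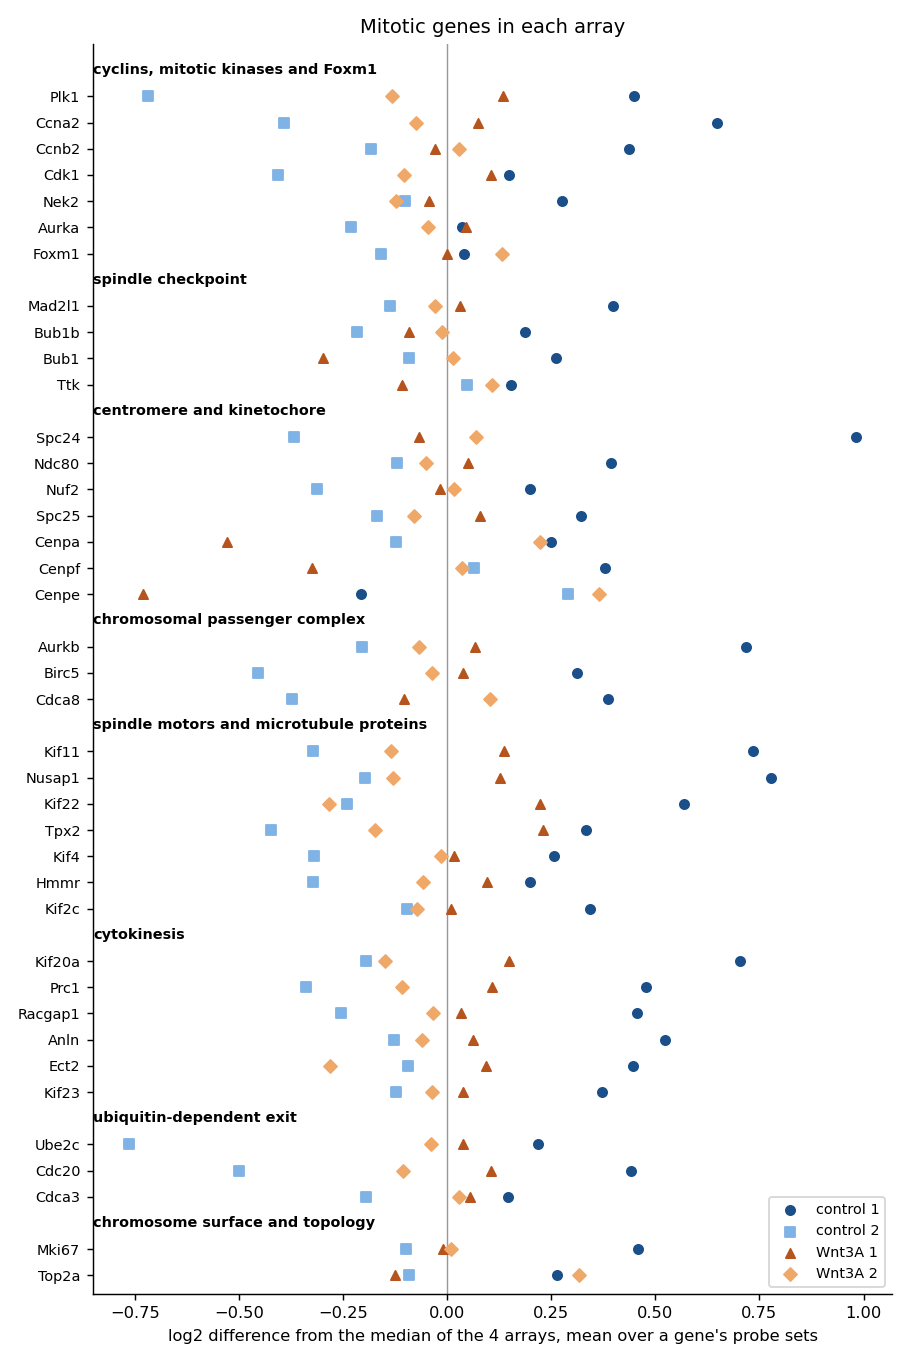
Value of each of the 39 mitotic genes in each array, as the log2 difference from the 4-array median (horizontal axis), grouped by role and ordered within a role by the gap between the controls. Control 1 (dark circles) is the highest array for 35 genes and control 2 (light squares) the lowest for 30.

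Sequences of 4 promoters are shown to print the promoter elements named above as they occur in members with wide gaps between the controls. RefSeq promoter windows of 300 bases (GRCm38.p6, 250 before the gene's start and 50 after it) were found for 33 of the 39 members. The members without one in the table were Aurkb, Ccna2, Kif20a, Tpx2, Spc24 and Foxm1. A CCAAT box, searched as CCAAT on both strands, was present in 26 of the 33 (78.8%), against 41.1% of the 27025 genes with a window. The cell cycle genes homology region, searched as TTTGAA or TTCGAA on both strands, was present in 27 (81.8%) against 21.7%. Both were present in 24 members (72.7%) against 9.65%, and neither in Birc5, Mad2l1, Nuf2 and Nusap1. An E2F motif, searched as TTTGGCGC or TTTCGCGC, was in 1 member and in 0.929% of genes. The capitals below mark CCAAT and homology region matches on either strand in the 250 bases before the start, read 5' to 3' on the gene's strand. Kif11 (chr19:37376132-37376381, plus strand), Ube2c (chr2:164769679-164769928, plus strand) and Cdc20 (chr4:118437344-118437593, minus strand) had the widest gaps between the controls among members with both elements in this stretch, and Nusap1 (chr2:119618048-119618297, plus strand) the widest with neither.
Kif11: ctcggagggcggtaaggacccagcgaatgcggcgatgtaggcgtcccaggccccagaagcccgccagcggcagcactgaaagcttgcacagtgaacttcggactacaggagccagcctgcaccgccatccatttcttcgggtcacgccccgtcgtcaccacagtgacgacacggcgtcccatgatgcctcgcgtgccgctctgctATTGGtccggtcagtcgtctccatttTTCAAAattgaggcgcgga
Ube2c: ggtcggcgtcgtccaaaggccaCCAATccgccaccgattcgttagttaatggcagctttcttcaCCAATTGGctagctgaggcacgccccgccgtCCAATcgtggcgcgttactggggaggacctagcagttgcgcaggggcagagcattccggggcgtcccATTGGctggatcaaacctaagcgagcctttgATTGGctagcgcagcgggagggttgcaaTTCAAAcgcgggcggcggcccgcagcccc
Cdc20: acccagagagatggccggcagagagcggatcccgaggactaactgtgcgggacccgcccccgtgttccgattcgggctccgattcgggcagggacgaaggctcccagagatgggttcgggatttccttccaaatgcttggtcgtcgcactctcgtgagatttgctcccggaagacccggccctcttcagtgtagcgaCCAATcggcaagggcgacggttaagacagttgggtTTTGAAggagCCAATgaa
Nusap1: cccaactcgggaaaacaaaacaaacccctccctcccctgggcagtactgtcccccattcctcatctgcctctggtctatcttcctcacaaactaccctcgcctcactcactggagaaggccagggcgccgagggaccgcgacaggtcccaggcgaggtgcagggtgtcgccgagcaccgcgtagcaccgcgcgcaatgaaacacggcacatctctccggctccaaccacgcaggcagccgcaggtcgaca
These matches are letters in a window and do not show that a factor binds there. The median gap between the controls was 0.55 log2 units in the 24 members with both elements and 0.52 in the other 9. Control 1 was highest and control 2 lowest for 16 of these 24 (66.7%) and for 7 of the other 9 (77.8%). Among genes outside the list, this order held for 158 of the 1162 genes with both elements (13.6%) and for 1449 of the 13173 others (11%).

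The first comparison asked whether mitotic genes differ between Wnt3A and control colonies. With Wnt3A the median difference of the members was -0.12 log2 units, against 0.00 over all genes, with 26 lower and 13 higher, against 49.9% and 50.1% of all genes. By limma 0 of the 39 passed an adjusted p under 0.05, as did 0% of all genes (smallest adjusted p 0.27), and the members' adjusted p ran from 0.805 upwards. At an unadjusted p under 0.05 there were 0 members in either direction, against 7.37% of all genes (3.55% higher and 3.82% lower). Both Wnt3A arrays lay below both controls for Cenpf alone and above them for 0 members, where 17.5% and 17% of all genes did so. The members' differences ran from -0.37 (Cenpf) to 0.27 (Ube2c), and their standard errors from 0.14 to 0.47. The median was 0.20 without control 1, with 33 of 39 members higher, and -0.39 without control 2, with 37 lower.

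Within each array number the Wnt3A difference had opposite signs. Wnt3A 1 was below control 1 for 38 of 39 members, with a median of -0.35 log2 units, against 49.8% of all genes. Wnt3A 2 was above control 2 for 35 members, with a median of 0.20, against 49.6% of all genes. Both held for 34 members, against 20.1% of all genes. The exception in number 1 was Aurka (0.01), and those in number 2 were Cenpf, Kif22, Ect2 and Nek2, between -0.19 and -0.02. With 1 array in each cell of the design the difference between the numbers was not tested.

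**Figure D2:**
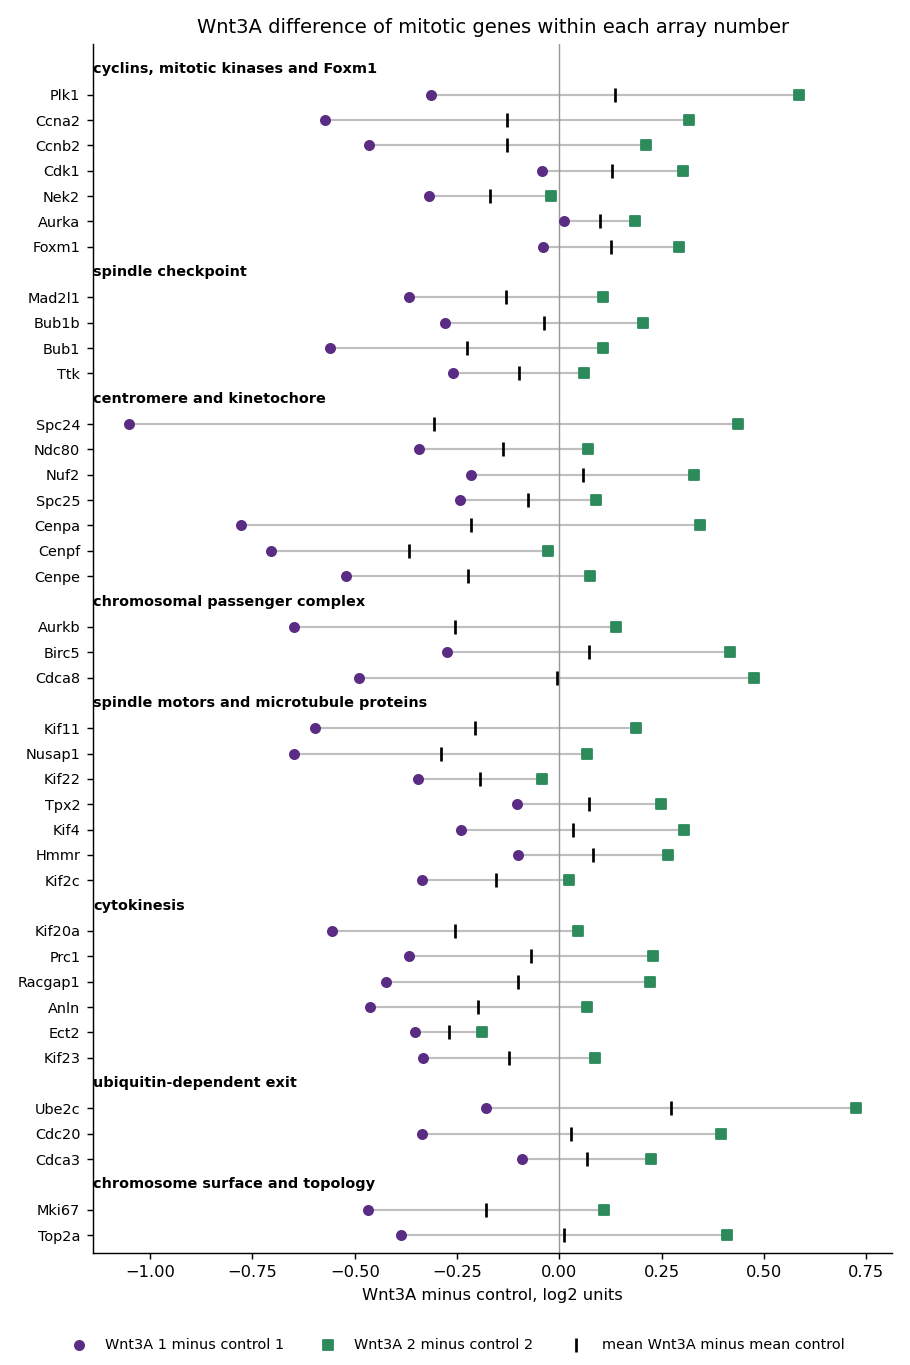
Wnt3A minus control in log2 units (horizontal axis) for each mitotic gene within number 1 (circles) and within number 2 (squares), with the difference of the group means as a black bar. Circles lie below 0 for 38 of 39 genes and squares above 0 for 35.

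The second comparison set the 2 arrays numbered 2 against the 2 numbered 1, whatever the agent. The members' median difference, number 2 minus number 1, was -0.31 log2 units, against -0.06 over all genes, and 34 of 39 were lower, against 62.2% of all genes. By limma 0 members passed an adjusted p under 0.05, as did 0% of all genes (smallest adjusted p 0.17), and the members' adjusted p ran from 0.36 to 0.98. At an unadjusted p under 0.05, 8 members were lower and 1 higher, against 7.45% and 4.18% of all genes. Both arrays numbered 2 were below both numbered 1 for 26 members and above them for 1, against 31.5% and 14.3% of all genes. Leaving out control 1 gave a median of -0.16 and leaving out control 2 one of -0.24, while it was -0.48 without Wnt3A 1 and -0.40 without Wnt3A 2. The gap between the controls was thus wider than that between the Wnt3A arrays, whose median difference (Wnt3A 1 minus Wnt3A 2) was 0.08 over the members and 0.06 over all genes.

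Cyclins and mitotic kinases set the timing of mitosis. Plk1, the Polo-like kinase needed for spindle assembly and cytokinesis, was 0.45 and -0.72 in controls 1 and 2, with 0.13 and -0.13 in Wnt3A 1 and 2. The controls were thus the outer arrays, 2.24-fold apart, and the Wnt3A difference was 0.13 ± 0.41 (SE) against a number difference of -0.72 ± 0.25 (limma adjusted p = 0.42). Ccna2, encoding cyclin A2, which drives S phase and entry into mitosis, was 0.65 and -0.39 in controls 1 and 2, with 0.08 and -0.08 in Wnt3A 1 and 2. Its Wnt3A difference was -0.13 ± 0.37 and its number difference -0.59 ± 0.24. Cdk1, the catalytic partner of mitotic cyclins, was 0.15 in control 1, 0.10 in Wnt3A 1, -0.10 in Wnt3A 2 and -0.41 in control 2. In that gene control 2 stood apart rather than control 1, and the number difference was -0.38 ± 0.14. Ccnb2, the measured B-type cyclin, ran from 0.44 in control 1 to -0.18 in control 2. The centrosome kinase genes had number differences of -0.18 ± 0.11 (Aurka) and -0.23 ± 0.14 (Nek2) as means over all their probe sets. Their upper-band probe sets alone gave -0.48 for Aurka and -0.44 for Nek2, with gaps between the controls of 0.73 and 0.78. Foxm1, the transcription factor of this programme, ranged from -0.16 in control 2 to 0.13 in Wnt3A 2 as a mean over its 4 probe sets. Its number difference was -0.03 ± 0.14. None of these probe sets lay in the upper band, and they disagreed. Their number differences ran from -0.17 to 0.09, and their gaps between the controls from 0.01 to 0.54.

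Spindle checkpoint genes delay anaphase until every chromosome is attached. Mad2l1, encoding the checkpoint effector Mad2, was 0.40 and -0.14 in controls 1 and 2, with 0.03 and -0.03 in Wnt3A 1 and 2. Only control 1 was far from the others, and the Wnt3A difference was -0.13 ± 0.21. The kinase gene Bub1 was 0.26, -0.09, -0.30 and 0.01 in the same order, so Wnt3A 1 was lowest, and its Wnt3A difference was -0.23 ± 0.19. Its upper-band probe set alone was 0.56, -0.22, 0.17 and -0.17, with control 2 lowest. Bub1b, encoding BubR1, was 0.19, -0.22, -0.09 and -0.01, with a number difference of -0.16 ± 0.15. Ttk, the kinase Mps1 at the head of the checkpoint, had a gap of 0.10 log2 units between the controls as a mean of opposed probe sets, 0.72 in the upper band and -0.51 in the band of 4 to 8.

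Centromere and kinetochore genes held both the widest gap between the controls and the one gene that ran the other way. Spc24, a subunit of the Ndc80 complex that binds microtubules, was 0.98 in control 1 and -0.37 in control 2, with -0.07 and 0.07 in Wnt3A 1 and 2. Control 1 was 2.55-fold above control 2, and the differences were -0.31 ± 0.47 for Wnt3A and -0.61 ± 0.40 for number. Its partners Ndc80, Nuf2 and Spc25 had the same outer arrays, with gaps between the controls of 0.52, 0.51 and 0.49 log2 units. Cenpf, a large kinetochore protein, was 0.38 and 0.06 in controls 1 and 2, with -0.33 and 0.04 in Wnt3A 1 and 2. It was the member whose groups did not overlap, with a Wnt3A difference of -0.37 ± 0.19 (limma adjusted p = 0.805). Cenpe, a kinetochore motor, was -0.21 and 0.29 in controls 1 and 2, with -0.73 and 0.36 in Wnt3A 1 and 2. Both arrays numbered 2 were above both numbered 1, by 0.80 ± 0.20 (limma adjusted p = 0.36). Cenpa, the centromeric histone, had a number difference of 0.19 ± 0.31, which was -0.32 in its highest band.

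Probe sets of some members disagreed with each other, both across level bands and within one. In the upper band 55 of the members' 56 probe sets were lower in number 2, with a median of -0.46 log2 units, while in the band of 4 to 8 it was 14 of 26 with a median of -0.06, and below 4 it was 2 of 5. Of all genes, as means over their probe sets, 62.2% were lower in number 2. Shares of all probe sets by band are not given here, so the contrast between bands is not particular to the members on these values. The Cenpe probe set in the upper band was 0.33 and -0.23 in controls 1 and 2, with 0.02 and -0.02 in Wnt3A 1 and 2. The one in the band of 4 to 8 was -0.75, 0.81, -1.48 and 0.75, so it alone gave Cenpe its turned order. In Anln, Spc25 and Kif11, by contrast, probe sets of both bands were all lower in number 2. In Kif2c probe sets of the upper band itself ran from -0.84 to 0.06. Bub1, Cenpa, Hmmr and Top2a also had probe sets whose number differences opposed each other by more than 1 log2 unit. With each gene taken as the mean of the probe sets in its highest band, 39 of 39 members were lower in number 2 (median -0.42, against -0.06 over all genes), and control 1 was highest and control 2 lowest for 35 of 39, against 10.9% of all genes. The Wnt3A median stayed at -0.12 in that form, with 27 members lower.

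**Figure D3:**
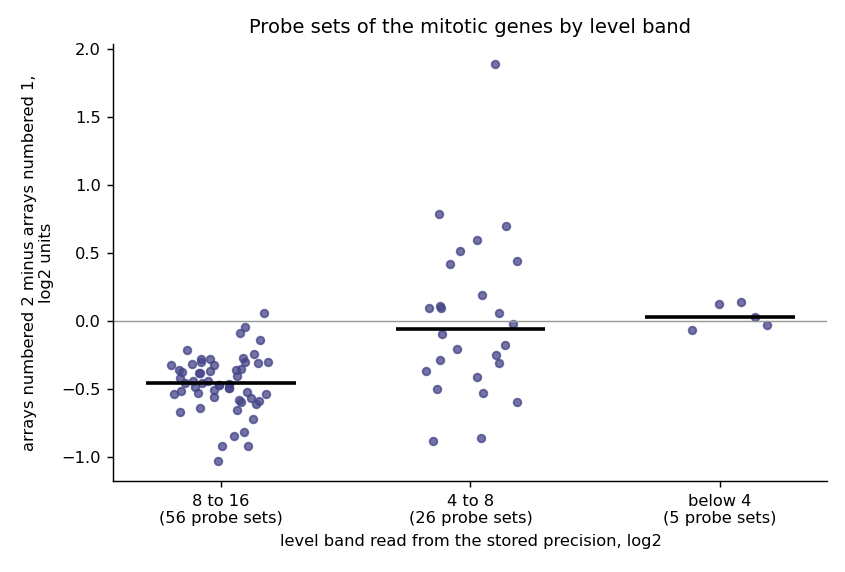
Difference between arrays numbered 2 and numbered 1 in log2 units (vertical axis) for each of the 87 probe sets of the mitotic genes, by level band (horizontal axis, points spread sideways at random), with the median as a bar. The 56 probe sets of the upper band lie below 0 with 1 exception, and the 26 of the middle band lie on both sides.

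The chromosomal passenger complex corrects faulty attachments and then steers cytokinesis. Aurkb, its kinase, was 0.72 and -0.20 in controls 1 and 2, with 0.07 and -0.07 in Wnt3A 1 and 2. Birc5, encoding survivin, was 0.31, -0.46, 0.04 and -0.04 in the same order. In both genes the controls were the outer arrays, but control 1 was further out for Aurkb and control 2 for Birc5. The Wnt3A differences were -0.26 ± 0.33 for Aurkb and 0.07 ± 0.28 for Birc5, and the number differences -0.53 ± 0.25 and -0.42 ± 0.20. Cdca8, encoding borealin, had a gap of 0.76 between the controls and a Wnt3A difference of -0.01 ± 0.28.

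Spindle motor and microtubule genes were lower in both arrays numbered 2 than in both numbered 1 for 7 of 7 members, against 31.5% of all genes, with a median number difference of -0.58 log2 units. Kif11, the motor that pushes spindle poles apart, was 0.73 and -0.32 in controls 1 and 2, with 0.14 and -0.14 in Wnt3A 1 and 2. Its number difference was -0.66 ± 0.23 and its Wnt3A difference -0.21 ± 0.38. Nusap1, a protein that bundles spindle microtubules, was 0.78, -0.20, 0.13 and -0.13 in that order. Control 1 stood further out than control 2 in both genes. Kif22, a motor on chromosome arms, was 0.57, -0.24, 0.22 and -0.28, and its number difference of -0.66 ± 0.15 had the smallest adjusted p among the members (limma, 0.36, shared with Tpx2). Tpx2, which activates Aurora A on the spindle, differed by -0.58 ± 0.13. Hmmr, a spindle pole protein, had a number difference of -0.34 ± 0.14.

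Cytokinesis genes were lower in both arrays numbered 2 than in both numbered 1 for 6 of 6 members (31.5% of all genes), with a median of -0.42, and 5 had control 1 highest and control 2 lowest. Kif20a, a motor of the central spindle, was 0.70 and -0.19 in controls 1 and 2, with 0.15 and -0.15 in Wnt3A 1 and 2. Prc1, the bundler of central spindle microtubules, was 0.48, -0.34, 0.11 and -0.11 in that order. Number differences were -0.60 ± 0.21 for Kif20a and -0.52 ± 0.18 for Prc1, against Wnt3A differences of -0.25 ± 0.33 and -0.07 ± 0.30. Ect2, the exchange factor that activates RhoA at the cleavage site, was 0.45, -0.09, 0.09 and -0.28, so Wnt3A 2 rather than control 2 was lowest. It had the most negative Wnt3A difference of this role, -0.27 ± 0.25. All 6 cytokinesis genes had a negative Wnt3A difference, with a median of -0.16, but without control 1 the difference was positive for 5 of the 6.

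Ube2c, Cdc20 and Cdca3, grouped here under ubiquitin-dependent exit, had the lowest median of any role in control 2, -0.50. Ube2c, the ubiquitin-conjugating enzyme of the anaphase-promoting complex, was 0.22 and -0.76 in controls 1 and 2, with 0.04 and -0.04 in Wnt3A 1 and 2. Cdc20, the activator of that complex, was 0.44, -0.50, 0.11 and -0.11. The Wnt3A difference was positive for all 3 members, 0.27 ± 0.35 for Ube2c, 0.03 ± 0.34 for Cdc20 and 0.07 ± 0.16 for Cdca3, and without control 2 it was negative for all 3. Number differences were -0.53 ± 0.27, -0.58 ± 0.20 and -0.18 ± 0.13. Of the chromosome proteins, Mki67, the Ki-67 antigen, was 0.46 and -0.10 in controls 1 and 2, with -0.01 and 0.01 in Wnt3A 1 and 2. Control 1 alone was far from the rest, and the differences were -0.18 ± 0.22 for Wnt3A and -0.27 ± 0.19 for number. Top2a, the topoisomerase that untangles sister chromatids, was 0.26, -0.09, -0.12 and 0.32, and its upper-band probe set was 0.51, -0.26, 0.09 and -0.09. The number difference of Top2a was 0.04 ± 0.22 over all its probe sets and -0.47 in the upper band.

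Other genes of the pathway were taken from lists of their own. Of 73 measured kinetochore, checkpoint, spindle and cytokinesis genes outside the 39, 61 were lower in number 2, with a median of -0.31 log2 units, against -0.06 over all genes, and 39 had control 1 highest and control 2 lowest, against 11% of all genes. At an unadjusted p under 0.05, 15 were lower and 1 higher in number 2, against 7.45% and 4.18% of all genes. Examples were Pimreg (number difference -0.80 ± 0.22), Fam83d (-0.71 ± 0.22), a spindle protein, Cenpl (-0.74 ± 0.17) and Nsl1 (-0.62 ± 0.09), both of the kinetochore. Their median Wnt3A difference was -0.06, with 2 higher and 0 lower at an unadjusted p under 0.05, against 3.55% and 3.82% of all genes. Condensin, cohesin and separase genes had medians of -0.14 for number and -0.12 for Wnt3A over 20 genes, and 8 had the controls as outer arrays with control 1 on top. In that list separase, Espl1, differed by -0.67 ± 0.22 between numbers and the condensin gene Smc2 by 0.73 ± 0.36, which became -0.44 with the probe sets of its highest band. Of 17 anaphase-promoting complex subunits and inhibitors, 2 had that order, and the median number difference was -0.11, with Fzr1, the Cdh1 activator, at -0.41 ± 0.20 and Anapc13 at -0.27 ± 0.17. Among 22 MuvB, B-Myb, E2F and pocket protein genes 9 had it, with a median of -0.17, and E2f7 (-0.64 ± 0.17) and E2f1 (-0.59 ± 0.15), a repressor and an activator of cell cycle genes, were furthest apart. None of these genes passed the adjusted threshold in either comparison.

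DNA replication and G1/S genes, which act before mitosis, ran alongside. Over 38 genes the controls had medians of 0.31 (control 1) and -0.24 (control 2), and the Wnt3A arrays 0.08 and -0.07. They were lower in number 2 for 37 of 38 genes (62.2% of all genes), 14 of them at an unadjusted p under 0.05 (7.45% of all genes). Control 1 was highest and control 2 lowest for 28 (11% of all genes). Rpa2, a subunit of the single-strand binding protein, differed by -0.86 ± 0.21 between numbers and the thymidine kinase gene Tk1 by -0.76 ± 0.26. The median Wnt3A difference was 0.00, with 19 genes on each side of 0, and no test of a difference between this list and the mitotic genes was made.

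**Figure D4:**
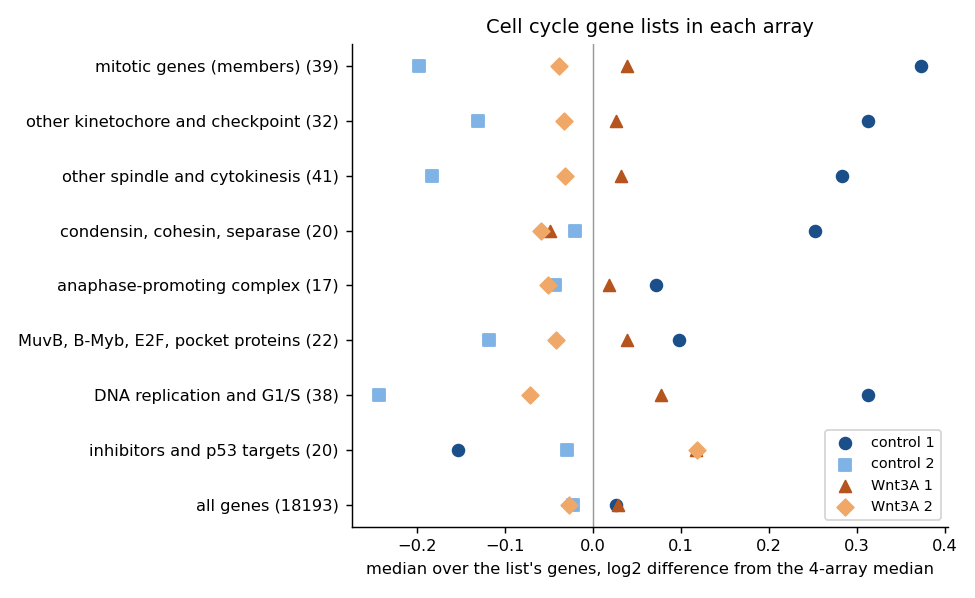
Median value of each cell cycle gene list in each array (horizontal axis, log2 difference from the 4-array median), with the number of measured genes in brackets. Mitotic genes and DNA replication genes both run from control 2 at -0.20 and -0.24 up to control 1 at 0.37 and 0.31, while the medians of all genes lie close to 0.

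Markers of cell types and states also differed across these arrays. Of the 9 basal markers 0 had control 1 as their highest array, and the list medians were -0.18 and -0.15 in the arrays numbered 1 (control, Wnt3A) and 0.06 and 0.08 in those numbered 2. Control 1 was below control 2 for 6 of the 9 and above it for Krt5, Itgb4 and Col17a1. The widest gaps were in contractile genes: Cnn1 was -2.75 in control 1 against 0.48 in control 2, and Myh11 -1.67 against 0.27. Krt5 was 0.02 against -0.42. The 9 luminal markers had medians of 0.17 and 0.08 in controls 1 and 2, and of -0.02 and -0.17 in the Wnt3A arrays. Gene by gene, however, the median of control 1 minus control 2 was -0.48, and control 1 was the higher only for Elf5, Kit and Gata3. With Wnt3A 7 luminal markers were lower in mean and 2 higher, with a median of -0.42, and Foxa1 (-2.34) and Krt19 (-1.71) were the furthest down. The 7 squamous markers were higher in mean with Wnt3A in 7 of 7, with medians of -0.57 and -0.33 in the controls and 0.12 and 2.06 in Wnt3A 1 and 2. Fibroblast, endothelial and leukocyte lists had medians between -0.12 and 0.10 in every array. Single markers in them differed more, in both directions. Among fibroblast markers Col1a2 was -0.82 in control 1 against 0.58 in control 2, and Pdgfra 0.79 against 0.14. The part of these cell states in the mitotic gene values was not tested.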

How the data were processed

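Colony RNA was measured on 4 single-colour Affymetrix mouse arrays. The submitters' processing notes name RMA without a version, and the deposited values are on a log2 scale. Each row's median over the arrays was 0, a centring that no label describes. Column medians lay between -0.02 and 0.02.

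A gene was the mean of all its probe sets with a single symbol (34945 of 45037, array controls left out), with no filter. Groups were compared over all 18193 genes with limma 3.58.1 in R 4.3.3 (lmFit, eBayes, two-sided, Benjamini-Hochberg, threshold 0.05), with no covariate and 2 residual degrees of freedom. The number of arrays limits the precision: the median standard error was 0.15 log2 units for Wnt3A and 0.13 for number, and an exact permutation test of 2 against 2 cannot give a two-sided p below 0.33. The fit was also run on simulated arrays with independent noise and no effect shared by arrays of the same number, and its outcome is not reported here. Level bands were read from the stored precision and checked on simulated numbers. Of these, 6.7% at log2 4 to 8 and 6% below 4 were read as a band too high. All of those at 8 to 16 were read right. Levels close to the band edges were not simulated.

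The members and lists were chosen with earlier results of these data known. Named are Mki67, Top2a, Ccnb1 (not measured), Cdk1 and Foxm1, the 2 members of each role with the largest absolute difference in each comparison, members with opposed probe sets, and the 2 largest of each other list, with others added as examples after their values were seen. Alternatives were the highest-band probe sets, a filter on the lowest band, quantile normalization, centring of each array, a block for the replicate number, robust eBayes, omission of each array and single probe sets. Checks of array order under other settings were added after seeing the data. Python 3.11.15 and matplotlib 3.10.9 served for summaries and figures.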

Additional observations from a re-analysis of the deposited data

Results flagged for a closer look

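The Wnt3A difference of the mitotic genes had opposite signs in the 2 array numbers. The median over the 39 members was -0.35 log2 units for Wnt3A 1 minus control 1 and 0.20 for Wnt3A 2 minus control 2. With 1 array in each cell of the design, the difference between the numbers was not tested.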

How the results depend on the processing

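Calls did not change with the settings tried: limma called 0 members and 0 genes at an adjusted p under 0.05 in both comparisons under every alternative, and at an unadjusted p under 0.05 it had 944 to 2801 features for Wnt3A and 1246 to 5345 for number. With each array left out in turn, the median Wnt3A difference of the members ran from -0.39 to 0.20 and the number difference from -0.48 to -0.16. The lone array of a group is then assumed to vary like the other group. Leaving out 1 array turned the sign of the Wnt3A difference of 22 of the genes named by the rules above, which ran as follows: Mki67 (-0.46 to 0.10), Top2a (-0.21 to 0.23), Cdk1 (-0.15 to 0.41), Nek2 (-0.36 to 0.019), Plk1 (-0.45 to 0.72), Ccna2 (-0.65 to 0.39), Mad2l1 (-0.40 to 0.14), Bub1b (-0.24 to 0.17), Spc24 (-0.98 to 0.37), Cenpe (-0.77 to 0.32), Aurkb (-0.72 to 0.20), Birc5 (-0.31 to 0.46), Nusap1 (-0.78 to 0.20), Kif11 (-0.73 to 0.32), Kif22 (-0.60 to 0.21), Kif20a (-0.70 to 0.19), Prc1 (-0.48 to 0.34), Ube2c (-0.22 to 0.76), Cdca3 (-0.10 to 0.24), Cdc20 (-0.44 to 0.50), Cenpa (-0.59 to 0.16) and Hmmr (-0.18 to 0.34). Members added as examples are not in this list, and some of them turned as well, among them Ccnb2, Tpx2, Cdca8 and Aurka. In the number comparison the sign turned for the rule-named genes Top2a (-0.16 to 0.25), Foxm1 (-0.18 to 0.11), Bub1 (-0.30 to 0.26), Cenpf (-0.33 to 0.38) and Cenpa (-0.20 to 0.58). It also turned for Ttk, an added example.

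With the probe sets of the highest level band, the Wnt3A difference turned for Top2a (-0.12), Bub1b (0.060) and Hmmr (-0.027), and the number difference for Top2a (-0.47), Cenpf (-0.28), Cenpe (-0.30), Cenpa (-0.32), Ttk (-0.31) and Smc2 (-0.44). The Wnt3A difference of Top2a was -0.038 after quantile normalization, and the number difference of Bub1 was 0.012 with each array centred. The cause was not tested, beyond what the probe sets of these genes show. With the replicate number as a block (replicate block), the member medians of -0.12 and -0.31 cannot change, because each group holds both numbers. Only the p-values can, and 0 genes were called, with 2275 (Wnt3A) and 2848 (number) genes at an unadjusted p under 0.05. Deviations from the group mean correlated across all genes between control 1 and Wnt3A 1 (Pearson r = 0.44), but the labels do not say that the numbers pair the samples. Control 1 was highest and control 2 lowest for 28 to 35 members over the other settings. Single probe sets were tested for counts and medians, not for single genes.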

Other observations

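Cell cycle inhibitors and p53 targets, whose products hold cells back from division, were described over 20 genes. There controls 1 and 2 had medians of -0.15 and -0.03 and both Wnt3A arrays 0.12, and 2 of the 20 had control 1 highest and control 2 lowest, near the 11% of all genes. Btg2, an antiproliferative p53 target, was -0.82 (control) and -0.88 (Wnt3A) in the arrays numbered 1, and 0.82 and 0.72 in those numbered 2. It was 1.62 ± 0.10 log2 units (SE) higher in number 2 (limma adjusted p = 0.25), with the arrays of each number close together whatever the agent. Cdkn2c, encoding the Cdk4 and Cdk6 inhibitor p18, ran the other way, from 1.01 in control 1 to -0.30 in control 2, with a number difference of -0.91 ± 0.28 (limma adjusted p = 0.40).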
